A study of Mus musculus with 44 samples.

Results

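Transcripts of 10 Polycomb genes, Ezh1, Ezh2, Eed, Suz12, Jarid2, Rnf2, Ring1, Pcgf6, Kdm2b and Kdm6b, were followed in single two-cell mouse embryos with and without the chromatin proteins Dppa2 and Dppa4. They were chosen by name and are 10 of the 35269 gene probes in the expression table. In all, 44 C57Bl/6 embryos from natural matings were sequenced singly, and they came from 6 litters. WT embryos (n = 14) were Dppa2/4+/+ and came from control mothers and wild-type fathers. HET1 embryos (n = 15) were Dppa2/4+/- and came from mothers in which Zp3-Cre, a Cre driven in growing oocytes, had removed a conditional Dppa2/4 allele, crossed with wild-type fathers. HET2 (Dppa2/4+/-, n = 5) and HOM (Dppa2/4-/-, n = 10) embryos came from the same kind of knockout mother crossed with heterozygous fathers. The deletion runs from exon 2 of Dppa4 to exon 7 of Dppa2. HET1, HET2 and HOM embryos all lacked the maternal supply, and only the WT group had it. Each cross gave 2 litters, with 10 and 4 WT, 7 and 8 HET1, 4 and 1 HET2 and 3 and 7 HOM embryos in matings 1 and 2. HET2 and HOM embryos shared their litters. In every other comparison, litter and group cannot be told apart. The HET2 and HOM genotypes were read by the submitters from the embryos' own Dppa2 and Dppa4 transcripts.

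Polycomb proteins keep genes silent by modifying histones, and they act in 2 families of complexes. Polycomb repressive complex 2 (PRC2) methylates lysine 27 of histone H3. Ezh2 or its paralogue Ezh1 is the methyltransferase, and it is active only together with Eed, which binds the methylated tail, and Suz12, the scaffold. Jarid2 is an accessory subunit that helps to bring PRC2 to chromatin. PRC1 ubiquitinates histone H2A through the paralogous ligases Rnf2 (RING1B) and Ring1 (RING1A). Pcgf6 and Kdm2b belong to variant PRC1 complexes, and Kdm2b binds unmethylated CpG DNA. Kdm6b (JMJD3) works in the opposite direction and removes methyl groups from lysine 27 of H3. In early embryos much of the Polycomb mRNA is laid down in the oocyte. In embryonic stem cells Dppa2 and Dppa4 are known to bind CpG-rich promoters that carry Polycomb marks.

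The 10 genes lie on 8 chromosomes of GRCm38. Ezh1 (chr11:101191115-101226463), Suz12 (chr11:79993106-80034123) and Kdm6b (chr11:69398508-69413675) share chromosome 11. In RefSeq, 9 of the 10 had a promoter window (250 bases before to 50 after the start of the gene, build GRCm38.p6), and Kdm6b had none. In each of the 9, at least 50% of the first listed window was G or C and the observed to expected ratio of CpG was at least 0.6. Of 11461 tested genes with a window, 63.0% met both criteria, and of all 27025 genes with a window, 34.1% did. The 250 bases upstream of Suz12 and Pcgf6 are shown because these were the members called lower in HET1 embryos. CpG dinucleotides are in capitals, and the sequences read 5′ to 3′ along the strand of each gene, Suz12 on the plus strand (chr11:79992856-79993105) and Pcgf6 on the minus strand (chr19:47050907-47051156).
Suz12: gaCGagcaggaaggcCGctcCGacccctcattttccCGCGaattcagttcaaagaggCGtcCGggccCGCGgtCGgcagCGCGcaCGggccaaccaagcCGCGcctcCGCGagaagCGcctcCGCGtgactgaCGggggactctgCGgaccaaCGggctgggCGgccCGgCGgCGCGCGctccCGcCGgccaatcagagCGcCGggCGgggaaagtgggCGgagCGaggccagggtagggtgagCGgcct
Pcgf6: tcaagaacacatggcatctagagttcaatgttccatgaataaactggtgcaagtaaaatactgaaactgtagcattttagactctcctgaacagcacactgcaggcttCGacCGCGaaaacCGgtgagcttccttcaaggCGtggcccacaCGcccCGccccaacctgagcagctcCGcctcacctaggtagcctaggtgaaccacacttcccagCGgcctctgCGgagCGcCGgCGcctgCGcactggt
The Suz12 stretch held 37 CpG and the Pcgf6 stretch held 14. CG was the only motif searched, and it reads the same on both strands.

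Sequencing depth differed between the groups. WT embryos had between 637704 and 3163026 reads with a median of 1770010, HET1 between 247667 and 1830316 with a median of 528166, HET2 between 698469 and 2136068 with a median of 1108889, and HOM between 418558 and 3048642 with a median of 803369. Values are on the log2 RPM scale (RPM, reads per 1000000 sequenced reads), and values under 1.86 (3.63 RPM) were raised to 1.86, because a gene without reads stands at a value that falls with depth. In WT replicates j and k 9403 and 9169 genes had a read, at 1367153 and 1065975 reads, against 10591 to 14199 genes in the other WT embryos, and 71.2% and 73.0% of their reads lay in probes. These embryos held the lowest Kdm6b values (1.86 and 1.91), replicate k also the highest Eed (9.26) and the lowest Pcgf6 value (6.02), and replicate j the lowest Jarid2 value (2.87) of the WT group. Mitochondrial genes took between 4.18% and 20.19% of an embryo's reads. The 2-cell markers Zfp352, Tmem92 and Sp110 had reads in 44 of 44 embryos, and Zscan4c in 26. All 6 genes of that list were detected, with median sums of 415 RPM in WT, 830 in HET1, 585 in HET2 and 631 in HOM embryos. Of 8 cumulus and granulosa cell markers, Fshr had no read in any embryo and the summed level reached at most 17.7 RPM, in a WT embryo. Cyp19a1 had a read in 16 embryos and reached 17.7 RPM by itself. The 4 blood markers summed to at most 6.35 RPM, with Ptprc at 0 throughout, Hba-a1 read in 7 embryos and Lyz2 in 6. The 5 trophectoderm and later-stage markers summed to at most 21 RPM, in a HET1 embryo, and Cdx2 had at most 1 read. Of 6 oocyte-derived transcripts, Mos had a read in 18 of 44 embryos. The 6 had median sums of 1840 RPM in WT, 2570 in HET1, 1890 in HET2 and 2190 in HOM embryos. Their part in the differences below was not tested.

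The targeted genes followed the labels on average. Dppa2 averaged 8.46 ± 0.55 log2 RPM in WT, 6.47 ± 1.02 in HET1 and 6.42 ± 1.54 in HET2 embryos (mean ± SD), and 7 of the 10 HOM embryos had no Dppa2 read. In 1 HET2 embryo Dppa2 stood at 8.88 (814 reads), above the WT median of 8.39, and the other 3 HOM embryos had up to 7 Dppa2 reads. For Dppa4 the means were 7.13 ± 0.56, 5.50 ± 1.19 and 5.20 ± 0.45 log2 RPM, and again 7 of the 10 HOM embryos had no read and the other 3 had up to 5. The HET1 litters differed in both genes. Dppa2 averaged 7.30 in mating 1 and 5.74 in mating 2 (difference -1.56, SE 0.29, limma adjusted p = 0.00018), and Dppa4 6.46 and 4.67 (-1.79, SE 0.30, limma adjusted p = 7.3e-05), with no overlap between the litters for Dppa4. Since these transcripts were used to assign HET2 and HOM, their levels in those groups are a description.

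The 10 genes separated into abundant and scarce transcripts. Levels of different genes were compared per kilobase of exon (log2 RPM minus log2 of the exon length in kb). Over all 44 embryos Suz12 was highest at 7.35 ± 0.44, and it exceeded the next gene, Rnf2 (5.88 ± 0.36), in 44 of 44 embryos. Ezh2 (5.68 ± 0.49), Pcgf6 (5.28 ± 0.71) and Eed (5.20 ± 0.65) followed. Neighbours among Rnf2, Ezh2, Pcgf6 and Eed did not differ beyond their spread, since the mean difference within an embryo was 0.20 ± 0.66, 0.40 ± 0.92 and 0.08 ± 0.97. A gap of 2.87 ± 1.25 separated Eed from Ezh1 (2.33 ± 0.82), again in 44 of 44 embryos. Jarid2 (2.11 ± 0.74), Kdm6b (2.03 ± 1.28) and Kdm2b (1.5 ± 0.83) lay close to Ezh1, and the SD of each step exceeded the step. Ring1 was last at 0.22 ± 0.19 per kb, near the floor of its values. Suz12 was first and Ring1 last in all 4 groups.

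**Figure D1:**
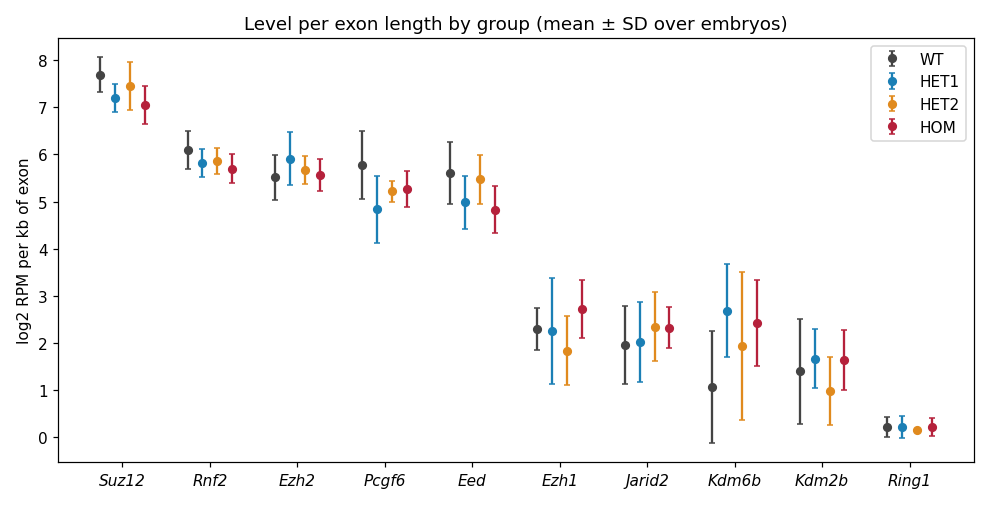
Level per exon length (vertical axis, log2 RPM per kb of exon) of the 10 Polycomb genes along the horizontal axis, with the mean as a point and the SD over embryos as a bar for each group (WT n = 14, HET1 n = 15, HET2 n = 5, HOM n = 10). Suz12 stood highest and Ring1 lowest in every group, and Eed and Ezh1 were separated by 2.87 over all embryos.

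In both pairs of paralogues a single member supplied most of the transcript. Ezh2 exceeded Ezh1 per kb in 44 of 44 embryos, with a median ratio of 9.84. By group the median ratio was 9.47 in WT, 11.5 in HET1, 11.7 in HET2 and 6.65 in HOM embryos, and the ranges overlapped. The ratio differed as much between the litters of 1 group, at 6.00 and 16.4 in the HET1 litters of matings 1 and 2. Ring1 had no read in 33 of the 44 embryos and 29 reads in all, while Rnf2 had between 56 and 1178 reads in each embryo. A count of 0 reads allows up to 0.984 RPM in the deepest embryo without a Ring1 read and 12.1 RPM in the shallowest (3 reads, counting error only), and the highest Ring1 level seen was 6.65 RPM. At this depth a difference in Ring1 between groups was not detectable. Ezh1 and Ezh2 shared no stretch of 75 bases, nor did Ring1 and Rnf2.

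**Figure D2:**
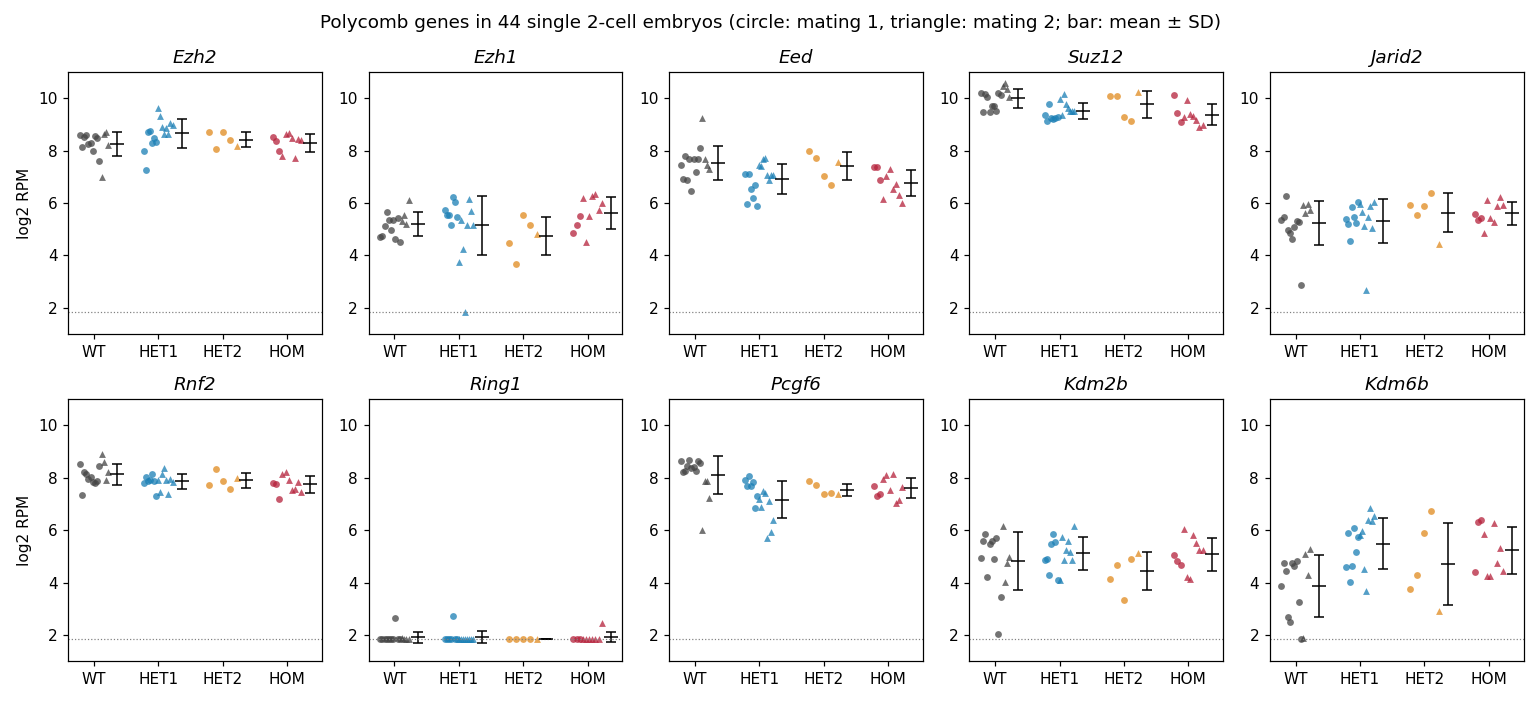
Level of each gene (vertical axis, log2 RPM) in each of the 44 embryos by group, with circles for mating 1, triangles for mating 2, a bar for the mean ± SD and a dotted line at the floor of 1.86. Suz12 values in HOM embryos lay mostly under the WT values, Kdm6b spread over several log2 units in each group, and Ring1 lay at the floor in 40 of 44 embryos.

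The scaffold subunit Suz12 and the ligase Rnf2 had the narrowest spread within litters (SD 0.33 for both), apart from Ring1 at the floor. WT embryos ranged from 9.46 to 10.57 log2 RPM with a median of 10.07, HET1 from 9.12 to 10.17 with a median of 9.51, and HOM from 8.89 to 10.13 with a median of 9.30. The HET2 embryos had 10.08, 10.07, 9.28 and 9.13 in mating 1 and 10.23 in mating 2. Of the HOM embryos, 8 of 10 lay under the lowest WT embryo, as did 7 of 15 HET1 and 2 of 5 HET2 embryos. The group ranges nevertheless overlapped.

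Eed, the reader of the methylated tail, ran from 6.45 to 9.26 log2 RPM in WT (median 7.56), from 5.88 to 7.70 in HET1 (median 7.07) and from 6.00 to 7.36 in HOM embryos (median 6.80). In HET2 it was 7.98, 7.72, 7.04, 6.70 and 7.58, the last being the embryo of mating 2. The 10 HOM embryos were all under the WT median and 3 were under the lowest WT embryo. A single WT embryo of mating 2 held the value of 9.26.

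The methyltransferase Ezh2 was close in WT (6.98 to 8.69 log2 RPM, median 8.37) and HOM embryos (7.71 to 8.67, median 8.42). In HET1 it ran from 7.26 to 9.63 with a median of 8.69, and 8 of 15 embryos exceeded the highest WT embryo. HET2 embryos had 8.70, 8.07, 8.70 and 8.41 in mating 1 and 8.19 in mating 2. Its paralogue Ezh1 had medians of 5.27 in WT, 5.47 in HET1, 4.80 in HET2 and 5.63 in HOM embryos, and 1 HET1 embryo had no read. Jarid2, the accessory subunit, had medians of 5.34, 5.47, 5.88 and 5.51 in the same order, with group ranges that overlapped.

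Among the PRC1 genes, the ligase Rnf2 ran from 7.34 to 8.91 log2 RPM in WT (median 8.08), from 7.32 to 8.38 in HET1 (median 7.90), from 7.59 to 8.33 in HET2 (median 7.87) and from 7.20 to 8.23 in HOM embryos (median 7.79). Pcgf6, of the PRC1.6 complex, ran from 6.02 to 8.69 in WT (median 8.31), from 5.71 to 8.07 in HET1 (median 7.32) and from 7.05 to 8.15 in HOM embryos (median 7.59). The HET2 embryos had 7.86, 7.71, 7.38 and 7.41 in mating 1 and 7.38 in mating 2. Every HET1, HET2 and HOM embryo was under the WT median for Pcgf6, which the 3 groups share. So were all 4 WT embryos of mating 2 (6.02 to 7.87), which made the low end of the WT range. Kdm2b had medians of 4.98 in WT, 5.16 in HET1, 4.66 in HET2 and 5.15 in HOM embryos. Its value is uncertain, because 627 bases (5.8%) of its exons overlap Rnf34 on the opposite strand, Rnf34 had 3104 reads in all embryos against 1754 for Kdm2b, and the reads were counted without regard to strand.

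The demethylase Kdm6b was the most variable of the 10, with an SD within litters of 1.09. WT embryos ranged from 1.86 to 5.28 log2 RPM with a median of 4.37, HET1 from 3.67 to 6.86 with a median of 5.83 and HOM from 4.27 to 6.39 with a median of 5.04. The HET2 embryos had 3.76, 4.31, 5.91 and 6.73 in mating 1 and 2.91 in mating 2. Of the HET1 embryos, 9 of 15 exceeded the highest WT embryo, as did 5 of 10 HOM and 2 of 5 HET2 embryos. These values rest on few reads, with a median of 29.5 in WT and 31.0 in HET1 embryos.

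Each group was compared with WT by limma across the 16412 genes with a mean deposited level of at least 0 log2 RPM, with Benjamini-Hochberg adjustment over all of them. The 3 comparisons share the WT embryos, so their values stand side by side and no agreement between them is counted.

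In HET1 embryos, which lacked the maternal supply and had an intact allele from the father, 3 of the 10 genes passed the adjusted threshold of 0.05, against 4.54% of all genes tested. Kdm6b was higher by 1.62 (SE 0.41, 95% interval 0.80 to 2.44, adjusted p = 0.015), in 13 of 15 embryos above the WT median. Pcgf6 was lower, with a difference of -0.94 (SE 0.23, -1.39 to -0.48, adjusted p = 0.012), in 15 of 15 embryos under the WT median. The 4 WT embryos of mating 2 were under that median too. Suz12 was lower, with a difference of -0.49 (SE 0.14, -0.77 to -0.20, adjusted p = 0.037), in 14 of 15 embryos under the WT median. Thus 1 gene was called higher, where 2.49% of all genes were, and 2 were called lower, where 2.05% were. Eed missed the threshold at -0.62 (SE 0.22, adjusted p = 0.088), as did Ezh2 at 0.40 (SE 0.17, adjusted p = 0.19) and Rnf2 at -0.27 (SE 0.13, adjusted p = 0.25). For Ezh1 (-0.05), Jarid2 (0.06), Kdm2b (0.28) and Ring1 (-0.00) the adjusted p was between 0.66 and 1.0. The intervals of the scarce genes were wide, from -0.65 to 0.55 for Ezh1 and from -0.50 to 0.63 for Jarid2.

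The 3 calls in HET1 varied with the litters and embryos included. Without the HET1 litter of mating 1, Pcgf6 (-1.33, adjusted p = 0.00048) and Kdm6b (1.90, adjusted p = 0.0085) passed, Suz12 stood at -0.32 (adjusted p = 0.25) and Ezh2 rose by 0.75 (adjusted p = 0.0029), with 14.3% of all genes passing. Without the HET1 litter of mating 2 no member passed and 0.0366% of all genes did (6 genes), so that the loss of calls was general. There Pcgf6 stood at -0.48 (adjusted p = 0.34), Suz12 at -0.68 (adjusted p = 0.088) and Kdm6b at 1.30 (adjusted p = 0.19). Without the WT litter of mating 2, Pcgf6 (-1.28, adjusted p = 0.00092) and Kdm6b (1.73, adjusted p = 0.016) passed, and Suz12 stood at -0.34 (adjusted p = 0.19), with 5.01% of all genes passing. Without the WT litter of mating 1, Suz12 passed (-0.84, adjusted p = 0.027), the Pcgf6 difference shrank to -0.07 (adjusted p = 1.0) and Kdm6b stood at 1.35 (adjusted p = 0.31), with 1.74% of all genes passing. When litter entered as a random effect, Kdm6b stood at 1.57, Suz12 at -0.54 and Pcgf6 at -0.81 (adjusted p = 0.35 for each), and when litter means were the replicates the values were 1.52, -0.61 and -0.65 (adjusted p = 0.99 for each). With 2 litters in each group, 0 of the 16412 genes passed in either of these fits, so the loss of the 3 calls there says nothing particular to them.

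A pair of further fits, chosen after the data were seen, left out embryos that stood apart. Without WT replicates j and k, Pcgf6 passed (-1.07, adjusted p = 0.0038), Kdm6b (1.29, adjusted p = 0.057) and Suz12 (-0.44, adjusted p = 0.089) did not, and 3.27% of all genes did. Without the 3 embryos with the lowest share of reads in probes (WT replicate j, HET1 replicate k and HET2 replicate b), Kdm6b (1.6, adjusted p = 0.024) and Pcgf6 (-0.92, adjusted p = 0.031) passed, Suz12 did not (-0.50, adjusted p = 0.061), and 2.53% of all genes did. No member passed in HOM or HET2 against WT in either fit. Over the 17 alternatives, these 2 included, Pcgf6 passed in 13, Kdm6b in 11 and Suz12 in 7, and each kept its sign in all 17. Suz12 also missed the threshold without the filter on the mean value (adjusted p = 0.051) and in limma-voom on the recovered reads (adjusted p = 0.059). Depth moved with the same genes. Across the 44 embryos log2 depth had a correlation of 0.56 with Suz12, 0.50 with Pcgf6, 0.47 with Eed and -0.52 with Kdm6b, a description in which group and litter also differ. When every embryo was thinned to 247667 reads, Suz12 (-0.51, adjusted p = 0.048) and Pcgf6 (-0.90, adjusted p = 0.023) passed, Kdm6b did not (1.46, adjusted p = 0.064), and Eed did (-0.80, adjusted p = 0.049), with 3.11% of all genes passing. On the deposited values without the floor 24.7% of all genes passed, and Eed joined the 3 members (adjusted p = 0.045).

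In HOM embryos, which had neither a maternal supply nor an intact allele, none of the 10 genes passed in limma, against 0.0183% of all genes (3 genes). At an unadjusted p under 0.05 there were 4 members, Suz12, Eed, Kdm6b and Rnf2, against 14.5% of all genes, and limma-voom on the recovered reads likewise called none after adjustment. Suz12 had a difference of -0.63 (SE 0.16, 95% interval -0.95 to -0.32, adjusted p = 0.085), with 9 of 10 embryos under the WT median. Eed had -0.77 (SE 0.24, -1.26 to -0.29, adjusted p = 0.15), Kdm6b 1.36 (SE 0.45, 0.44 to 2.27, adjusted p = 0.17) and Rnf2 -0.38 (SE 0.14, -0.67 to -0.09, adjusted p = 0.21). In HOM embryos Eed averaged 7.20 in mating 1 and 6.58 in mating 2, and its difference to WT ran from -1.17 to -0.34 over the alternatives. Pcgf6 had -0.51 (SE 0.25, adjusted p = 0.35), with 10 of 10 embryos under the WT median, as the 4 WT embryos of mating 2 were. It turned to 0.36 (adjusted p = 0.70) without the WT litter of mating 1. For Ezh2 the difference was 0.05, with an interval from -0.34 to 0.44. Suz12 passed when the HOM embryos of mating 1 were left out (-0.72, adjusted p = 0.031, with 0.487% of all genes passing) and when the WT embryos of mating 1 were (-0.99, adjusted p = 0.012, with 1.52%), and it did not in the other 15 alternatives. Between 35.5% and 56.8% of the tested genes stood at the floor in an embryo, and embryo medians ran from 1.86, the floor itself, to 3.47. The median over the tested genes was 0.40 higher in HOM and 0.22 higher in HET1 than in WT embryos. Relative to it, Suz12 in HOM stood at -1.03 (adjusted p = 0.11), Eed at -1.17 (adjusted p = 0.13), Pcgf6 at -0.91 (adjusted p = 0.14), Rnf2 at -0.78 (adjusted p = 0.15) and Kdm6b at 0.96 (adjusted p = 0.17). Ezh2 turned to -0.35, Jarid2 to -0.03 and Kdm2b to -0.16. Relative to the median in HET1, Kdm6b stood at 1.40 (adjusted p = 0.012), Pcgf6 at -1.15 (adjusted p = 0.0051) and Suz12 at -0.70 (adjusted p = 0.11, no longer called), with Eed at -0.84, Rnf2 at -0.49 and Ezh2 at 0.19, and Jarid2 turned to -0.15.

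In HET2 embryos no member passed, against 0.0305% of all genes (5 genes), none had an unadjusted p under 0.05 in limma, and limma-voom called none after adjustment and 1 before it, Pcgf6. The differences lay between -0.56 (Pcgf6, interval -1.20 to 0.09) and 0.86 (Kdm6b, interval -0.30 to 2.01). Both turned when a litter was left out, Pcgf6 to 0.31 without the WT litter of mating 1 and Kdm6b to -0.96 without mating 1 of the HET2 embryos, which leaves 1 HET2 embryo (adjusted p = 1.0 for both). With 5 embryos these intervals include differences of the size seen in HET1.

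HOM and HET2 embryos were compared within the 2 litters they shared, with litter as a covariate. No member passed, against 0.0122% of all genes (2 genes, Dppa2 and Dppa4, which had been used to assign the groups). No member had an unadjusted p under 0.05 in limma or in limma-voom. The differences were 1.06 for Kdm6b (-0.32 to 2.44) and 0.65 for Ezh1 (-0.19 to 1.49). They were -0.45 for Eed (-1.09 to 0.20), -0.38 for Suz12 (-0.99 to 0.23) and 0.01 for Pcgf6 (-0.46 to 0.47). Mating 2 held 1 HET2 embryo, and for Suz12, Eed and Kdm6b the gaps were wider there. HOM and HET2 means of Suz12 were 9.55 and 9.64 in mating 1, then 9.28 and 10.23 in mating 2. For Eed they were 7.2 and 7.36, then 6.58 and 7.58, and for Kdm6b 5.7 and 5.18, then 5.03 and 2.91. Relative to each embryo's median, the differences were -0.86 for Suz12, -0.92 for Eed, -0.47 for Pcgf6, 0.58 for Kdm6b and 0.17 for Ezh1. None of these was called.

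**Figure D3:**
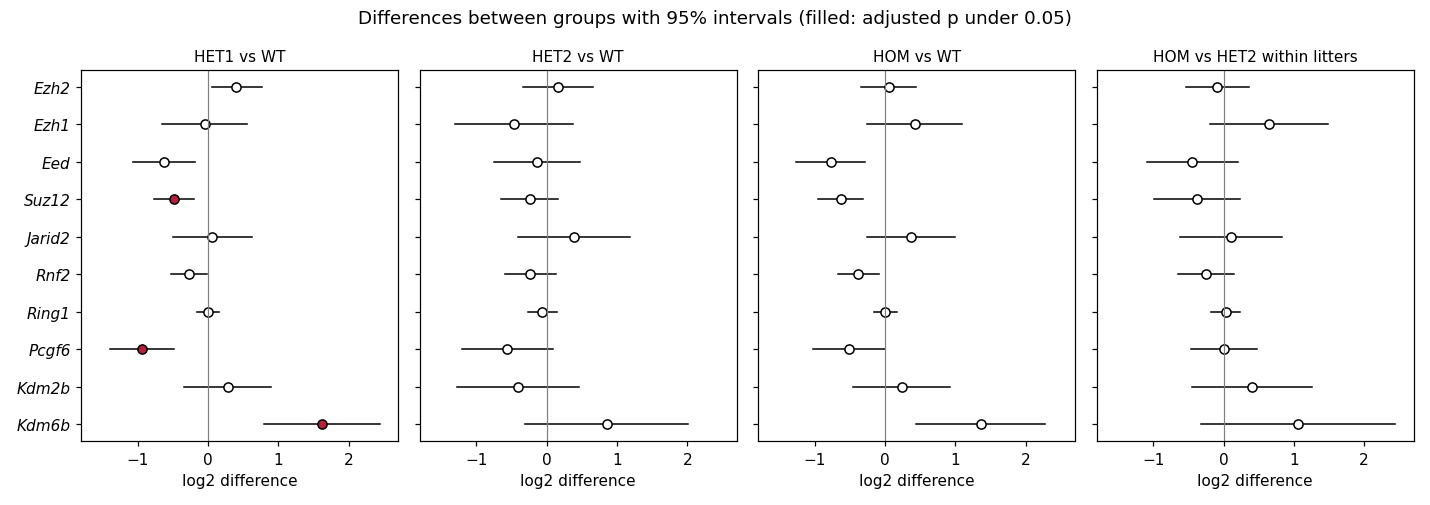
Difference in log2 RPM (horizontal axis) of each gene in 4 comparisons, with the 95% interval as a line and a filled point where the limma adjusted p was under 0.05. Filled points stood at Suz12, Pcgf6 and Kdm6b in HET1 against WT, and there were none in the other 3 panels.

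For Pcgf6, Ezh2, Eed and Suz12, litters of the same group differed by as much as HET1 and WT did. Suz12 had a difference of 0.50 between the WT litters (adjusted p = 0.18) and of 0.36 between the HET1 litters (adjusted p = 0.16), beside -0.49 between HET1 and WT, and neither litter difference was called. The litter differences of Kdm6b were 0.38 in WT, 0.60 in HET1 and -0.67 in HOM (none called), beside 1.62 between HET1 and WT. Between the HET2 litters, not tested because mating 2 had 1 embryo, Kdm6b stood at 5.18 and 2.91, a wider gap. In WT embryos Pcgf6 averaged 8.45 ± 0.18 log2 RPM in mating 1 (n = 10) and 7.24 ± 0.87 in mating 2 (n = 4), a difference of -1.21 (SE 0.28, limma adjusted p = 0.010), and the 2 litters did not overlap. It was the only member that passed there, against 2.55% of all genes. Without the WT embryo of mating 2 that had the lowest value (6.02), Pcgf6 stood at -0.80 (adjusted p = 0.19), and without WT replicates j and k, 1 from each litter, it stood at -0.79 (adjusted p = 0.23). In HET1 embryos 3 members passed, against 16.6% of all genes. Ezh2 averaged 8.25 ± 0.51 in mating 1 (n = 7) and 9.00 ± 0.33 in mating 2 (n = 8), higher by 0.75 (SE 0.22, limma adjusted p = 0.015). Eed averaged 6.49 ± 0.50 and 7.29 ± 0.32 (0.80, SE 0.26, limma adjusted p = 0.032), and Pcgf6 7.62 ± 0.42 and 6.77 ± 0.68 (-0.85, SE 0.25, limma adjusted p = 0.014). The medians of the second litter's embryos were 0.71 lower, with 41.5% to 53.1% of tested genes at the floor, against 35.5% to 48.1% in mating 1. After re-centring Pcgf6 stood at -0.15 (adjusted p = 0.74), Ezh2 at 1.46, Eed at 1.51, Suz12 at 1.07, Kdm6b at 1.31 and Ring1 at 0.58, the last 5 called, where 47.3% of all genes were. Eed was not called without the 3 embryos with the lowest share of reads in probes, of which HET1 replicate k is in that litter (0.74, adjusted p = 0.056), after thinning (adjusted p = 0.061) or without the floor (adjusted p = 0.06). After re-centring of the WT litters Pcgf6 stood at -1.22 (adjusted p = 0.095). Between the HOM litters no member passed in limma, none had an unadjusted p under 0.05, and 1.79% of all genes passed. Group alone accounted for 29.5% of the variance of Pcgf6 over the embryos, and group with litter for 61.9%. For Suz12 these shares were 34.1% and 53.7%, for Eed 25.8% and 48.0%, for Kdm6b 30.0% and 39.7%, and for Kdm2b 7.1% and 11.0%.

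**Figure D4:**
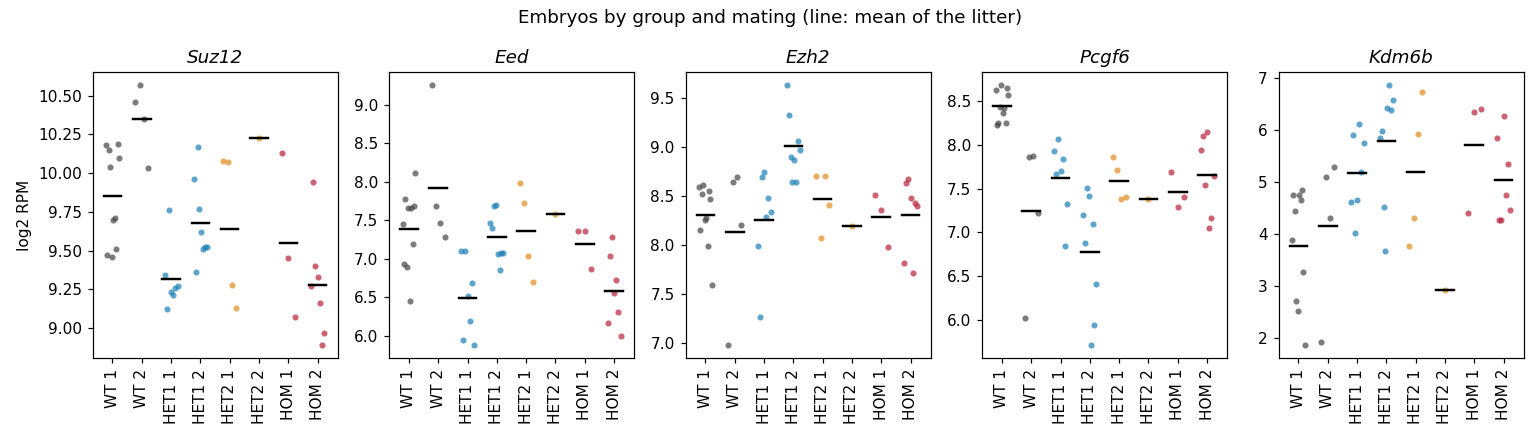
Level of 5 Polycomb genes (vertical axis, log2 RPM, a scale of its own for each gene) in each embryo, by group and mating on the horizontal axis, with a line at the mean of each litter. The WT litters stood at 8.45 and 7.24 for Pcgf6, and the HET1 litters at 8.25 and 9.00 for Ezh2.

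Some members varied together from embryo to embryo. After each embryo was re-centred on its median and the mean of its group and litter was removed, Suz12 and Rnf2 had a Pearson correlation of 0.88, Suz12 and Eed 0.86, Eed and Rnf2 0.84, Suz12 and Pcgf6 0.74 and Suz12 and Ezh2 0.68 (44 embryos, a description only). Kdm6b had negative values with Eed (-0.57), Rnf2 (-0.50) and Suz12 (-0.45). Ezh1, Jarid2 and Kdm2b had values between -0.27 and 0.36 with every other member. These values depended on the re-centring. Without it, Suz12 had 0.57 with Rnf2, 0.57 with Eed, 0.39 with Pcgf6 and 0.18 with Ezh2, Eed had 0.48 with Rnf2, and Kdm6b had -0.72 with Eed. Over the 36 pairs of the 9 genes other than Ring1 the median was 0.125. The points share library depth, and log2 depth within litters had a correlation of 0.39 with Pcgf6, 0.33 with Suz12, 0.31 with Ezh2, 0.28 with Eed, 0.24 with Rnf2 and -0.38 with Kdm6b.

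**Figure D5:**
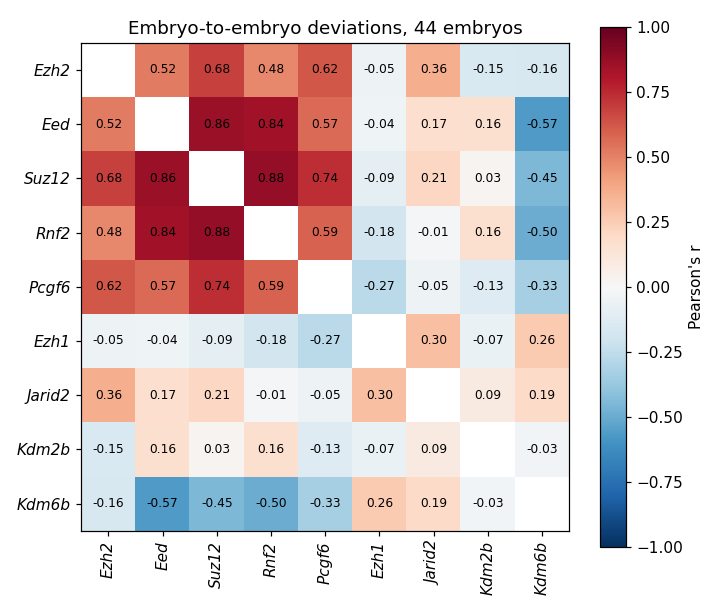
Pearson's r between pairs of 9 Polycomb genes over 44 embryos (colour, from -1 in blue to 1 in red), of levels re-centred per embryo with the mean of group and litter removed. Ezh2, Eed, Suz12, Rnf2 and Pcgf6 form a block with values from 0.48 to 0.88, and Kdm6b is negative with each of them.

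Among 6919 genes with a mean of at least 3 log2 RPM, the gene most like Suz12 by the same measure was Wdr26 (r = 0.94), and the one most like Rnf2 was Suz12 itself (0.88). Eed was most like Zc3h15 (0.92), Pcgf6 like Atad2b (0.85), Ezh2 like Zfp979 (0.83) and Kdm6b like Acd (0.80). The values were lower for Jarid2 with Errfi1 (0.73), Kdm2b with Gmpr2 (0.69) and Ezh1 with Rhoa (0.67). Ring1 had 0.83 with Mob1b, but it stood at the floor in 40 of 44 embryos, so that its deviations there are those of the subtracted medians. Each is the highest of 6919 values, and the median value lay between 0.01 and 0.14. The same medians were subtracted from every gene, so they enter all of these values. Without re-centring only Suz12 with Rnf2 was computed (0.57), and the other pairs were not.

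The other genes of the pathway were read from a list of 48, of which 47 were found in the table and 45 were tested. In HET1 embryos 2 passed (4.4% of the 45, beside 4.54% of all genes), both higher, and 16 had an unadjusted p under 0.05 (35.6%, beside 18.4%). In limma-voom 6 passed (13.3%, beside 15.4%). None passed in the other 3 group comparisons, where 8 (HOM against WT, 17.8% beside 14.5% of all genes), 3 (HET2 against WT, 6.7% beside 8.5%) and 1 (HOM against HET2, 2.2% beside 4.4%) had an unadjusted p under 0.05 in limma, and 7 (15.6% beside 17.6%), 4 (8.9% beside 9.9%) and 2 (4.4% beside 5.4%) in limma-voom, which called none either. Foxk1, a partner of the H2A deubiquitinase complex PR-DUB, averaged 3.36 ± 1.1 log2 RPM in WT and 5.10 ± 0.89 in HET1 embryos (difference 1.74, SE 0.39, limma adjusted p = 0.0077). Phf1, a PRC2 partner that binds methylated histone H3, averaged 6.17 ± 1.07 and 7.27 ± 0.78 (1.09, SE 0.33, limma adjusted p = 0.044). With litter as a random effect, where no gene passed, Foxk1 stood at 1.62 (adjusted p = 0.32) and Phf1 at 1.03 (adjusted p = 0.54). Without WT replicates j and k Foxk1 passed (1.74, adjusted p = 0.013) and Phf1 did not (0.95, adjusted p = 0.056), and without the WT litter of mating 1 the differences were 0.90 and 0.67 (adjusted p = 0.58 and 0.59). Without the HET1 litter of mating 2 they were 1.36 and 0.78 (adjusted p = 0.18 and 0.36). Over 17 alternatives Foxk1 passed in 13 and Phf1 in 7. Phf1 also missed the threshold after re-centring (adjusted p = 0.069) or thinning (0.078), with the mating block (0.076), with only the groups compared (0.067) and without the 3 embryos with the lowest share of reads in probes (0.078). The median difference of the 45 was 0.17 in HET1, beside 0.05 for all genes, 0.24 in HOM, beside 0.09, and 0.13 in HET2, beside 0.00. Between the HET1 litters 7 of the 45 passed (15.6%, beside 16.6% of all genes), 3 higher and 4 lower, and Kdm6a, the other H3K27 demethylase, was higher in mating 2 by 1.75 (SE 0.30, limma adjusted p = 9.2e-05).

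The PRC2 partners with the highest level per kb were Mtf2 (6.57) and Rbbp7 (6.28), which stood above Rnf2 and below Suz12. Of the PRC1 partners these were Bmi1 (8.37), a PCGF subunit of canonical PRC1, and Pcgf1 (5.94), the PCGF subunit found with Kdm2b. Bmi1 thus had a higher mean per kb than any of the 10 members. In PR-DUB they were Foxk2 (4.43) and Bap1 (3.21), the deubiquitinase. In the main limma fit none of these 6 passed in any group comparison. Mtf2 (-0.68, adjusted p = 0.068) and Foxk2 (0.89, adjusted p = 0.075) came closest, both in HET1. In HOM embryos Pcgf1 had a difference of 1.28 (SE 0.37, limma adjusted p = 0.13) and Bmi1 one of -0.56 (SE 0.22, limma adjusted p = 0.25).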

How the data were processed

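Single two-cell embryos were sequenced, and the authors trimmed reads with Trim Galore (version 0.6.5, with cutadapt 2.3), aligned them to GRCm38 with HISAT2 (version 2.1.0) and deposited log2 RPM for 35269 mRNA probes, counted without regard to strand. The deposited log2 values are whole reads divided by the total, and a probe without reads holds the value of 0.9 read. Read counts were recovered from those steps, and 99.9997% of values came out whole within 0.05 read. Recovered reads in probes made up 67.9% to 84.8% of each total.

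Values were raised to a common floor of 1.86 and tested with limma (version 3.58.1, R 4.3.3, eBayes with a trend) on the 16412 genes with a mean deposited value of at least 0. The 4 groups shared 1 model. HOM and HET2 were also fitted with litter as a covariate, and litters in a model of 8 cells of group and mating. Intervals are 95% and p-values were adjusted by the Benjamini-Hochberg method. Litter, not embryo, is the unit of mating, so p-values over embryos measure the spread between embryos. The pipeline was also run on simulated data, with planted changes larger than those reported for the members and no litter effect. That run does not bear on the calls made here. Gene models came from GENCODE M21, whose coordinates equal those of the file for 9 of the 10 members (Pcgf6 differs by 2 bases at its start and 61 at its end). Plots were drawn with matplotlib 3.10.9.

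The members and lists were chosen with earlier results of these data known. Named besides the members were Dppa2 and Dppa4, the listed Polycomb genes past the threshold in a group comparison, the 2 of each role with the highest level per kb, and the gene most correlated with each member. Ezhip, a further Polycomb gene, was not analysed here.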

Additional observations from a re-analysis of the deposited data

Results flagged for a closer look

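Of 20 sets of values (10 genes in the HET2 and HOM groups), 1 had an embryo apart from the others. Ring1 in HET2, at the floor in all 5 embryos, could not be judged. Ring1 was 2.45 log2 RPM in 1 HOM embryo of mating 2, with 3 reads, and at the floor of 1.86 in the other 9. With all other embryos at the floor, any single value above it is flagged, so the usual chance rate of about 1 set in 20 does not apply here. The value rests on 3 reads.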

How the results depend on the processing

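Over the alternatives run for the 7 comparisons, 86 of 97 counts of members called stayed within 1.5 times the reported count. HOM against WT moved from 0 to 1 member called without mating 1 of the knockout by heterozygote cross and without mating 1 of the control cross. HET1 against WT moved from 3 to 0 when litter was a random effect or its means were the replicates, where 0 of all genes passed, and without mating 2 of that cross, and to 1 without mating 1 of the control cross and without WT replicates j and k, a setting chosen after seeing the data. The WT litters moved from 1 to 0, and the HET1 litters from 3 to 5, when embryos were re-centred on their medians, the second HET1 litter having medians 0.71 lower and 47.3% of all genes passing. There Ring1 reversed from -0.12 to 0.58, with most embryos at the floor. Without WT replicates j and k the WT litters also moved to 0. Leaving out 1 WT embryo of mating 2 gave 0 to 1 members called between the WT litters, beside 222 to 938 of all genes, around 419 with every embryo. Without single HET2 or HOM embryos the counts stayed at 0. Of 963 differences of members, 27 lost and 7 gained a call, 1 reversed, and 78 changed sign without a call in either fit. Of the other Polycomb genes, limma-voom called 6 in HET1, against 2. Counts over all genes moved more. In HET1 against WT 745 genes passed, 54.9% of them higher, against 29.1% of 825 after re-centring (median shift 0.22), 4054 without the floor, 2520 with limma-voom, 536 without WT replicates j and k, 415 without the 3 embryos with the lowest share of reads in probes (also chosen after seeing the data), 2339 without the HET1 litter of mating 1, 6 without that of mating 2, 285 without the WT litter of mating 1, and 0 with litter as a random effect or as the replicate. In HOM against WT the range was 0 to 249 around 3, and in HET2 against WT 0 to 114 around 5. In the fit with a replicate block for mating number, members called were 3 in HET1, 0 in HOM and 0 in HET2. The labels do not say whether equal mating numbers pair the litters. Differences between the 2 litters of a group had correlations of 0.45 (WT with HET1), -0.44 (WT with HOM) and -0.76 (HET1 with HOM) over genes. With 1 difference per group, these values cannot decide it. Without a litter term, HOM against HET2 called 0. Genes at the floor in every embryo could not be fitted. Depth limits Ring1, with no read in 33 of 44 embryos.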
